A study of Mus musculus with 25 samples.

Results

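The genes examined here are 10 regulators of pluripotency, taken by name (Pou5f1, Nanog, Sall4, Prdm14, Esrrb, Tfcp2l1, Zfp42, Lin28a, Tdgf1 and Utf1) from the 20665 autosomal protein-coding gene records of the mouse assembly GRCm38.p6 (mm10). All 10 were found. For each gene the number of base pairs under H3K27me3 peaks was counted over its record and 5 kb on each side, called its window, in each of 3 deposited peak lists. The study examined transcriptional memory at Polycomb target genes. Its 25 libraries included 6 CUT&RUN libraries (antibody-directed nuclease cutting) of H3K27me3 in wild-type neural progenitors (NPC) that had been made from embryonic stem cells. These were 2 libraries with the PRC2 inhibitors UNC1999 at 2 uM and A395 at 4 uM, 2 after washout of both compounds and 2 untreated. The 12 H3K27me3 ChIP-seq libraries came from mouse embryonic fibroblasts immortalized with c-myc, lines A and B, with 2 libraries per line and genotype. The genotypes were Ezh2 -/-, Ezh2 restored and wild type, and the rescue used the retrovirus pMSCV-Ezh2 in line A but the endogenous gene, whose loss is labelled reversible, in line B. The other 7 libraries, labelled as line A Ezh2 -/- and covering input, RNA polymerase II, H3K4me3 and H3K36me3, were not analysed here.

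Polycomb repressive complex 2 (PRC2) trimethylates histone H3 at lysine 27, through Ezh2 or its paralogue Ezh1, on genes that are kept silent. Pluripotency regulators are active in embryonic stem cells and the early embryo and are shut off as cells differentiate. The promoters of several of them are also known to gain DNA methylation, so a silenced gene of this group need not carry H3K27me3. Neural progenitors and fibroblasts are both past the pluripotent stage, and the peak lists show which of the regulators had called peaks in each. Expression was not examined here.

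Each list gives peak positions with no height and no sample, 1 list per cell system (44807 peaks over 136.9 Mb in NPC, 86235 over 276.2 Mb in line A and 81972 over 235.7 Mb in line B). Inhibition, washout, Ezh2 loss and rescue could therefore not be compared, the depth is unknown, and no comparison between lists had a replicate check or a p-value. The presence of a peak in one list only is no measure of a difference in signal. The NPC and fibroblast lists differ both by assay and by cell type. A list from a cell population also does not tell apart a mark in few cells from a weak mark in all of them. The labelled cell types were set against marker genes. Of 12 neural progenitor markers, 3 had a peak in the NPC list (25%), against 8 in line A (66.7%) and 9 in line B (75%), where 31.9%, 40.2% and 40.9% of all gene records had one. Of 14 fibroblast markers, 5 had a peak in the NPC list (35.7%), and 1 in each fibroblast line (7.14%). The NPC shares of both marker lists lay near that of all records, so they say little about the labelled cell type.

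The promoters below, from RefSeq (GRCm38.p6), each run from 250 bases before an annotated start to 50 after it, and belong to the 2 most and the 2 least covered of the 8 members for which a promoter was found. They are shown because they carry the contrast among the members, namely promoters inside long H3K27me3 blocks and promoters with no peak. Sequences are 5′ to 3′ on the strand of the gene, and capitals mark CG dinucleotides.
Lin28a (chr4:134018767-134019066, minus strand): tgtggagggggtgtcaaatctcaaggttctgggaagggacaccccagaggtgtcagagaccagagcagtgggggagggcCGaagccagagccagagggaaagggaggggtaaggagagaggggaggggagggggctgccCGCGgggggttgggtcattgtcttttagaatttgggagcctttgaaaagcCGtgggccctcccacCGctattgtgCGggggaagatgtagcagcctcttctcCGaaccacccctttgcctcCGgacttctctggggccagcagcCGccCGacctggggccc
Esrrb, second start (chr12:86421394-86421693, plus strand): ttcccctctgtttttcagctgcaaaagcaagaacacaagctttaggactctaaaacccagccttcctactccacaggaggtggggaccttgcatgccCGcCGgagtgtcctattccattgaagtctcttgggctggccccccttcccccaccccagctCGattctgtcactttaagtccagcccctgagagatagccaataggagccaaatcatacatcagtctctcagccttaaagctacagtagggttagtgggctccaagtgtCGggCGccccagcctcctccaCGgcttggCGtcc
Nanog, first start (chr6:122707239-122707538, plus strand): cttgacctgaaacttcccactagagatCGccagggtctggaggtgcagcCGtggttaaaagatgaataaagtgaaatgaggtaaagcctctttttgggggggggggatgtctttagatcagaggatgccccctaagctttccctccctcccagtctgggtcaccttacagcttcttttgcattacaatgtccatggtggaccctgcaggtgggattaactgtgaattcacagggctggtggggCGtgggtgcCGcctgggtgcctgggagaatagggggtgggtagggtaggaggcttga
Zfp42 (chr8:43306960-43307259, minus strand): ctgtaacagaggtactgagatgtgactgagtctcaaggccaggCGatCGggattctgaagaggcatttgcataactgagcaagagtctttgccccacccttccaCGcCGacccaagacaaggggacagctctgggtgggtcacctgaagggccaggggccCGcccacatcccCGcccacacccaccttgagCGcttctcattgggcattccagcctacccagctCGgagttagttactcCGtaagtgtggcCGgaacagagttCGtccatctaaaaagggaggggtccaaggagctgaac

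The Lin28a promoter lay under peaks over 0 of its 300 bases in NPC and over all 300 in lines A and B. The promoter at the second Esrrb start was covered over all 300 bases in each list. The Nanog and Zfp42 promoters had 0 bases covered in each list. The number of CG dinucleotides did not separate the 2 kinds, with 10 in Lin28a and 7 in Esrrb against 4 in Nanog and 11 in Zfp42.

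H3K27me3 peaks stood at most of the pluripotency regulators in the fibroblast lines, often over much of the gene, and covered little of them in neural progenitors. At least 1 bp of peak lay in the window of 6 of the 10 genes in NPC, of 7 in line A and of 7 in line B, while 31.9%, 40.2% and 40.9% of all records had one. At least 50% of the window was covered at 0 genes in NPC, 3 in line A (Sall4, Prdm14 and Tfcp2l1) and 4 in line B (Prdm14, Esrrb, Lin28a and Tdgf1), where 3.91%, 9.98% and 9.71% of all records reached that share. These counts depend on how much each list covers. With the widest peaks of each list kept up to the NPC total length, a choice made after seeing the data, 6 genes had a peak in NPC (31.9% of records), 4 in line A (16.2%) and 6 in line B (19.4%). In each fibroblast line 1 gene then reached 50%, as did 5.71% of all records in line A and 6.61% in line B. With all peaks kept, the median covered share over the 10 genes was 2.44% in NPC, 42.8% in line A and 31.0% in line B. The median over all records was 0% in each list. Cut to the NPC total length, line A covered 0% of Pou5f1, Prdm14 and Lin28a, as already of Nanog, Zfp42 and Tdgf1. It then covered 15.7% of the Esrrb, 40.3% of the Utf1, 42.9% of the Sall4 and 61.3% of the Tfcp2l1 window. The windows had a median length of 22.8 kb over the 10 genes and 27.5 kb over all records.

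**Figure D1:**
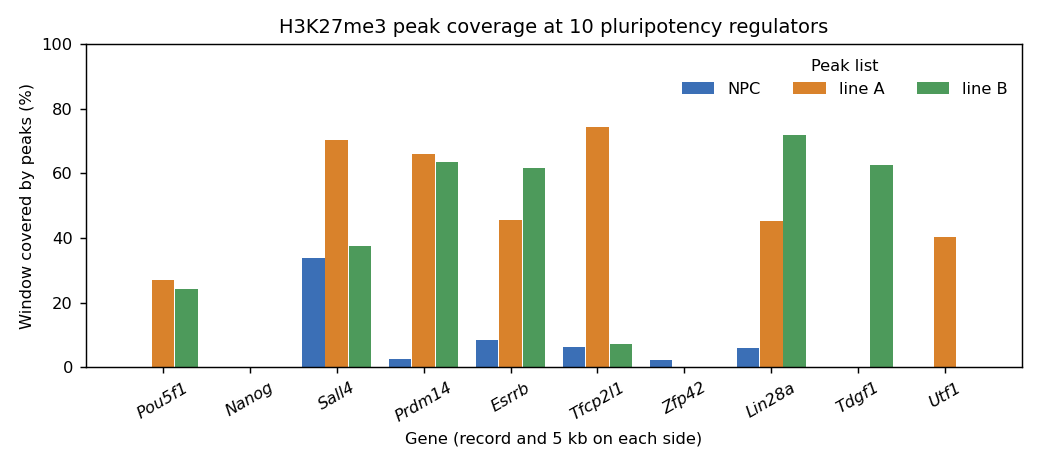
Share of each gene's window (record and 5 kb on each side, in percent) that lay under H3K27me3 peaks, with 1 bar per peak list (NPC, line A, line B) and no error bars because each cell system has 1 list. The NPC bars stay at or below 33.9%, the fibroblast bars reach 74.2% in line A and 71.8% in line B, while Nanog has no bar.

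By which lists held any peak, the genes fell into 6 kinds. Sall4, Prdm14, Esrrb, Tfcp2l1 and Lin28a had a peak in all 3 lists, as did 19.5% of all records. Pou5f1 had peaks in both fibroblast lines and none in NPC (12.5% of records), Utf1 in line A alone (4.55%), Tdgf1 in line B alone (6.28%) and Zfp42 in NPC alone (5.97%). Nanog had none in any list, as did 44.8% of records. None of the 10 had peaks in NPC and line A without line B, or in NPC and line B without line A, as 3.74% and 2.71% of records did. These patterns turn on single small peaks and on the window. Without peaks under 1 kb Prdm14 and Zfp42 had none in NPC, and with 10 kb around the record NPC covered 11.4% of the Utf1 and 4.84% of the Tdgf1 window.

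**Figure D2:**
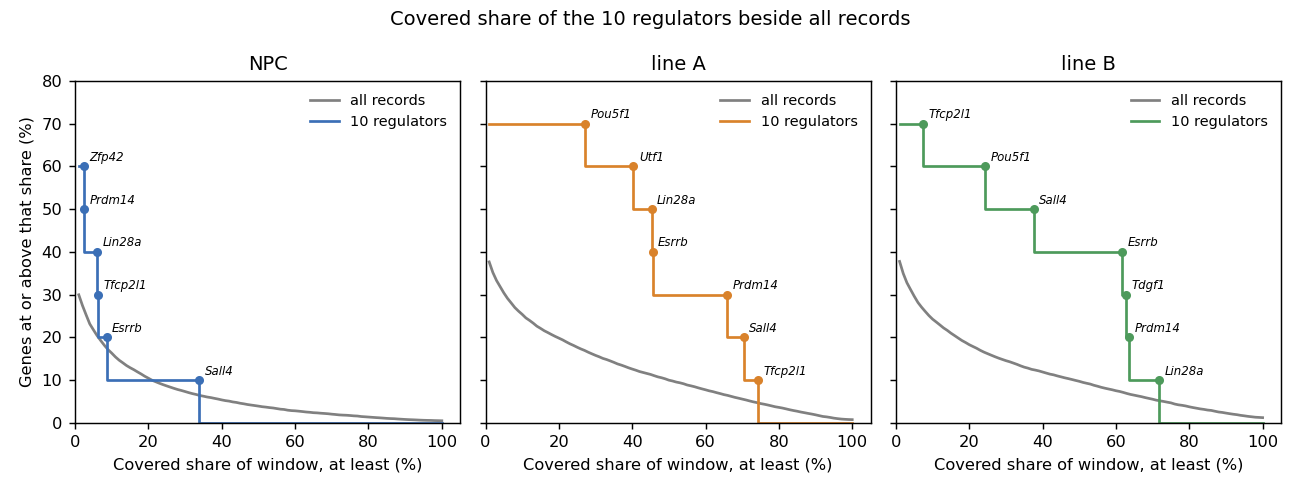
Percent of genes (vertical axis) whose window was covered to at least a given share (horizontal axis, in percent), for the 10 regulators (coloured steps and points) and all 20665 records (grey), in the NPC, line A and line B lists; regulators under 1% are not drawn. In both fibroblast lists the regulators lie above the grey curve up to their highest member, while in NPC only Sall4 lies beyond 10%.

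Among the core transcription factors, Sall4 had a peak in every list and Nanog in none. Pou5f1 had peaks upstream in both fibroblast lines, and in line A also inside the gene. Pou5f1 (NCBI gene 18999, chromosome 17, 35506032 to 35510777, plus strand) encodes Oct4, the POU-domain factor without which pluripotent cells do not form. It had 0 kb of its 14.7 kb window covered in NPC, 4.00 kb (27.1%) in line A and 3.59 kb (24.4%) in line B. In line B all of it was upstream, in the end of a 6.28 kb peak that stopped 1409 bp before the first annotated start. In line A 1.94 kb lay upstream, within the line B peak, and a separate peak of 2061 bp began 728 bp inside the gene and reached the second annotated start. The nearest NPC peak was 102.8 kb away. The next record beyond Pou5f1, Tcf19, whose window overlaps that of Pou5f1, was covered over 0% of its window in NPC, 7.73% in line A and 0% in line B. On the other side H2-Q10 had 0% in each list.

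Nanog (gene 71950, chromosome 6, 122707489 to 122714633, plus strand), a homeodomain factor that sustains self-renewal, had 0 bp covered in its 17.1 kb window in each list. The nearest peak to either of its annotated starts lay 67.2 kb away in NPC, 26021 bp in line A and 47.6 kb in line B. Both neighbouring records were nearly free as well. The germ cell gene Dppa3 was covered over 0%, 3.65% and 0% of its window in NPC, line A and line B, and the glucose transporter gene Slc2a3 over 3.46%, 0.784% and 0%.

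Sall4 (gene 99377, chromosome 2, 168748332 to 168767201), a zinc finger factor of embryonic stem cells, was the most covered member in NPC. A single NPC peak of 9.78 kb (33.9% of the window, above 93.6% of all records) lay over the higher-coordinate end of the record. Line A covered 20.3 kb (70.4%) with 5 peaks, and line B 10.9 kb (37.7%) with 3. The NPC peak lay wholly within a line A peak, and 95.3% of it within line B peaks. What line A added lay mainly at the lower-coordinate side of the gene, where it had 4 further peaks between -2.88 and 10.2 kb from that end of the record, a stretch in which neither NPC nor line B had one. On that side the next record, Atp9a, 5.96 kb away, was covered over 0% in NPC, 27.2% in line A and 8.62% in line B. On the other side Zfp64, 126.1 kb away, had 0%, 0% and 3.06%.

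**Figure D3:**
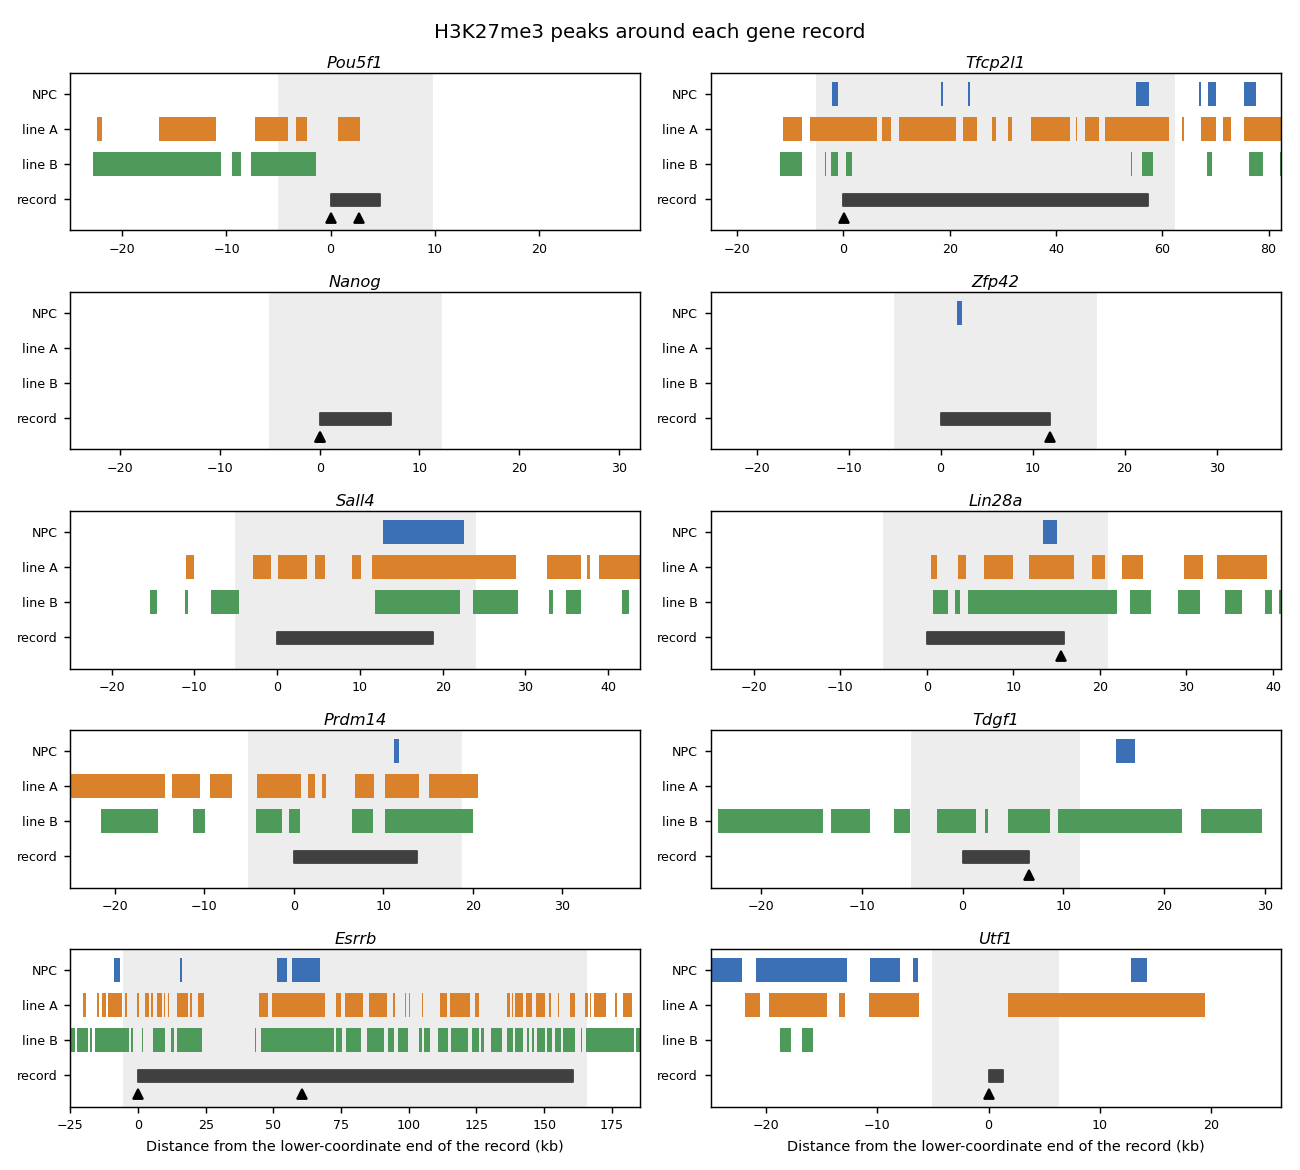
Peaks of the NPC, line A and line B lists (coloured blocks) around each of the 10 gene records (dark bar), with distance in kb from the lower-coordinate end of the record on the horizontal axis, the window shaded and annotated starts as triangles (not drawn for Sall4 and Prdm14). The fibroblast blocks span much of Prdm14, Esrrb and Lin28a where NPC has 1 to 3 peaks, and Tfcp2l1, Tdgf1 and Utf1 are covered mainly in 1 fibroblast line.

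The regulators of the naive state split between shared fibroblast blocks (Prdm14, Esrrb), a block of line A (Tfcp2l1) and near absence (Zfp42). Prdm14 (gene 383491, chromosome 1, 13113428 to 13127163), a PR-domain factor of naive pluripotency and germ cell formation, was covered over 0.588 kb (2.48%) in NPC, 15.6 kb (65.9%) in line A and 15.1 kb (63.6%) in line B. The fibroblast lines placed the mark on nearly the same bases, since 13.5 kb was shared, 86.5% of the line A and 89.6% of the line B length. The single NPC peak of 588 bp lay inside the peak that each line had nearest the higher-coordinate end of the record. On the higher-coordinate side the blocks stopped before the neighbour Ncoa2, 11.9 kb away, which had 0%, 0% and 0.383% covered. On the lower-coordinate side line A peaks, joined across gaps under 3 kb, ran on to position 13085092 in a region of 31.9 kb, beyond the window. The neighbour there, Slco5a1, 120.6 kb away, was covered over 0.850% in NPC, 22.2% in line A and 19.2% in line B.

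Esrrb (gene 26380, chromosome 12, 86361117 to 86521628, plus strand), an orphan nuclear receptor of the naive network and by far the longest record of the 10 (160.5 kb), was covered over 14.6 kb (8.57%) in NPC, 77.7 kb (45.6%) in line A and 105.3 kb (61.7%) in line B. The NPC length lay in 3 peaks within the first 67.1 kb of the gene. The largest of them, 10.3 kb, spanned the second annotated start at position 86421644, and so did the largest peak of line A (19.5 kb) and of line B (26.9 kb). At the first start, line A had a peak of 761 bp over it, line B had its nearest peak 1425 bp away and NPC 6531 bp away. Both fibroblast lines left a gap inside the gene, from 24.3 to 44.6 kb in line A and from 23.6 to 43.1 kb in line B, counted from its start. Of the line A length 85.2% was shared with line B, and of the line B length 62.9% with line A. Joined across gaps under 3 kb, the last line B region was 112.3 kb long and ran past the end of the gene to position 86577147. The neighbour on that side, Vash1, which encodes an inhibitor of angiogenesis, lay 157.1 kb away and was covered over 0% in NPC, 34.5% in line A and 53.4% in line B. On the other side Gpatch2l had 1.57%, 0.814% and 3.39%.

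Tfcp2l1 (gene 81879, chromosome 1, 118627923 to 118685168, plus strand), a CP2-family transcription factor that sustains self-renewal downstream of LIF, was among the members that differed most between the fibroblast lines. Its window was covered over 4.27 kb (6.35%) in NPC, 49.9 kb (74.2%) in line A and 4.96 kb (7.38%) in line B. Line A covered the start with a peak of 12.6 kb and lay above 95.3% of all records. In line B a peak of 1173 bp began 494 bp after the start, and in NPC a peak of 1171 bp ended 1079 bp before it. All of the NPC and all of the line B length fell inside line A peaks, and NPC and line B shared 2.42 kb, 56.5% of the NPC and 48.7% of the line B length. The records on its sides, Clasp1 and the Hedgehog effector gene Gli2, each had 0% of their windows covered in line A. In NPC and line B Clasp1 had 0% and 0%, and Gli2 6.92% and 0.612%. As line A minus line B, Tfcp2l1 differed by 66.8 points and Tdgf1 by -62.7. Their order depends on the window, since with 2, 10 or 25 kb around the record or with joined peaks Tdgf1 differed more (-72.4, -67.1, -75.4 and -100 points, against 66.1, 60.4, 50.2 and 80.6 for Tfcp2l1). At equal total length Lin28a differed most, by -62.4 points, against 61.3 for Tfcp2l1 and -12.4 for Tdgf1.

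Zfp42 (gene 22702, chromosome 8, 43295067 to 43307009, minus strand), the zinc finger gene known as Rex1 that marks naive cells, had a single peak of 526 bp in NPC (2.40% of the window), near the 3' end and 9.61 kb from the start. Lines A and B had 0 bp in the window, and their nearest peaks were 73.1 and 90.8 kb from the start. The neighbour Triml2 had 0%, 5.58% and 0% covered, and Adam26b 0% in each list.

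The RNA-binding, signalling and chromatin members each had peaks in their windows in fibroblasts, Lin28a in both lines and Tdgf1 and Utf1 in 1 line each. At Utf1 the peak lay only downstream of the gene. Lin28a (gene 83557, chromosome 4, 134003330 to 134019196, minus strand) encodes the RNA-binding protein that blocks maturation of let-7 microRNAs. It was covered over 1.54 kb (5.97%) in NPC, 11.7 kb (45.3%) in line A and 18.6 kb (71.8%) in line B. Its NPC peak of 1543 bp ended 489 bp inside the annotated start, and the fibroblast peaks over the start were 5.20 kb long in line A and 17.3 kb in line B. The NPC length lay wholly within the peaks of each line, and 92.6% of the line A length lay within line B. On the 3' side the neighbour Dhdds, 2.37 kb away, was covered over 0%, 1.79% and 4.31% of its window. On the 5' side Crybg2, 41.5 kb away, was covered over 0% in NPC, 34.5% in line A and 49.2% in line B.

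Tdgf1 (gene 21667, chromosome 9, 110939608 to 110946158, minus strand), which encodes the Nodal co-receptor Cripto, had 0 kb covered in NPC, 0 kb in line A and 10.4 kb (62.7%) in line B, with a peak of 4.17 kb over its start. The line B peaks belonged to a longer block. Joined across gaps under 3 kb, they formed a region of 72.8 kb that also reached Als2cl, Fam240a and Lrrc2. Fam240a was covered over 0% in NPC, 3.19% in line A and 94.3% in line B. Lrrc2 was covered over 4.24%, 0.456% and 55.0% in the same lists. The nearest peak to the Tdgf1 start was 8.72 kb away in NPC and 34.7 kb in line A.

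Utf1 (gene 22286, chromosome 7, 139943856 to 139945112, plus strand), a chromatin-bound factor of undifferentiated embryonic cells, had 0 kb covered in NPC, 4.54 kb (40.3%) in line A and 0 kb in line B. The line A length was downstream of the gene only, in the near end of a peak of 17.8 kb that began 1715 bp after the start, and the record itself had 0 bp covered. On its other side the record Kndc1, 2.32 kb away, was covered over 56.4% in NPC, 55.2% in line A and 25.7% in line B. The next record beyond the line A peak, Spef1l, had 0% in each list. Chromosome 7 was sparse in the line B list, where 24.8% of its records had a peak in their window, the lowest of the 19 autosomes. In NPC the share was 47.2%, the highest of the 19 autosomes, and in line A 34.5%. The part of this in the Utf1 value was not tested.

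Past a difference of 25 percentage points, and in the windows with 5 kb on each side, NPC was the less covered system at every member that differed from either fibroblast line, while lines A and B differed from each other in both directions. With NPC minus line A as the difference in covered share, 7 of the 10 genes were lower by at least 25 points and 0 were higher by as much, while 12.5% of all records were lower and 3.11% higher by this rule. The 7 were Pou5f1, Sall4, Prdm14, Esrrb, Tfcp2l1, Lin28a and Utf1. With NPC minus line B, 4 genes were lower (Prdm14, Esrrb, Lin28a and Tdgf1) and 0 higher, against 12.1% and 3.98% of records. With line A minus line B, 3 were higher (Sall4 by 32.8, Tfcp2l1 by 66.8 and Utf1 by 40.3 points) and 2 lower (Lin28a at -26.5 and Tdgf1 at -62.7 points), against 6.01% and 5.06% of records. With the 44807 widest peaks of each list, 6 genes were lower in NPC than in line A (11.3% of records) and 4 than in line B (11.4%). At equal total length fewer genes passed. In NPC 2 were then lower than in line A (Tfcp2l1 and Utf1, 6.27% of records) and 2 lower than in line B (Prdm14 and Lin28a, 7.9%). Prdm14 and Lin28a were more covered in NPC than in line A, and Pou5f1 had 0% in both. This choice keeps every NPC peak, here of 588 bp at Prdm14 and 1543 bp at Lin28a. It drops all line A peaks at these 2 genes, of which the widest were 5393 and 5196 bp. As line A minus line B at equal total length, Tfcp2l1 and Utf1 were at least 25 points higher (3.99% of records) and Prdm14 and Lin28a lower (5.68%). With 25 kb around the record Utf1 was at least 25 points higher in NPC than in line B. The 3 differences share lists and are not independent. Summed over the 10 windows, of which Esrrb gives the largest part, NPC peaks covered 31.3 kb, line A peaks 183.9 kb and line B peaks 168.7 kb. Of the NPC length 98.3% lay inside line A peaks and 90.9% inside line B peaks, and these overlaps made up 16.8% of the line A and 16.9% of the line B length. Lines A and B shared 107.9 kb, 58.7% of the line A and 64.0% of the line B length.

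A peak lay over an annotated start at 5 genes in at least 1 list. Of the 8 members with an annotated start, a peak lay over a start at 1 gene in NPC (Esrrb), at 4 in line A (Pou5f1, Esrrb, Tfcp2l1 and Lin28a) and at 3 in line B (Esrrb, Lin28a and Tdgf1). Over all 16457 records with a start the shares were 9.35%, 13.2% and 14.4%. Within 2 kb of a start the counts were 3, 5 and 5 of 8, against 17.5%, 23.9% and 25.1% of records.

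The promoters of the 8 members were mostly of low to middling CG content. The ratio of observed to expected CG dinucleotides ran from 0.181 at the second Nanog start to 0.656 at Tfcp2l1, where the median of 20078 promoters was 0.586. It was 0.318 at the second Esrrb start, covered in each list, and 0.441 at Zfp42, covered in none. Over all promoters, sorted by this ratio into 4 groups of nearly equal size, peaks touched 10.5% of the lowest and 7.59% of the highest group in NPC, 17.8% and 6.00% in line A and 17.2% and 8.01% in line B. The group next above the lowest, with ratios from 0.234 to 0.586, had the largest share in each list. It was 11.1% in NPC, 18.5% in line A and 19.6% in line B. The letters ATGCAAA, the core of the octamer that the Pou5f1 product binds, occurred on either strand in the promoters of Nanog and Zfp42 and not in these windows of the other 6 genes. Of all promoters, 4.29% hold them.

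In a wider list of 39 other genes tied to pluripotency or its exit, a few were covered whole and others had no peak. A peak lay in the window of 12 genes for NPC and of 23 for each fibroblast line (30.8%, 59.0% and 59.0%, beside the 31.9%, 40.2% and 40.9% of all records). At least 50% of the window was covered at 3, 6 and 7 genes (7.69%, 15.4% and 17.9%, beside 3.91%, 9.98% and 9.71% of all records), and the median share was 0%, 9.81% and 2.87%. The signalling ligand gene Fgf4, on chromosome 7 as is Utf1, was covered in each list, over 90.6% in NPC, 81.1% in line A and 70.1% in line B. Gbx2 and Otx2, homeodomain factors that also pattern the brain, were each covered over 0% in NPC and 100% in both fibroblast lines. Foxd3, a forkhead factor of stem cells and neural crest, had 0%, 71.0% and 100%, and the nuclear receptor gene Nr5a2 1.11%, 88.2% and 41.7%.

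Other genes of the wider list were covered in other orders. The T-box gene Tbx3 was covered over 100% of its window in NPC, 12.4% in line A and 4.66% in line B. Mycn, a Myc paralogue, had 80.2%, 64.1% and 8.42%. Sox2, the partner of Oct4 and also a neural progenitor factor, was covered over 0%, 0% and 100%. Dnmt3l, a DNA methyltransferase cofactor, had 13.1%, 12.4% and 61.0%, and the ligand gene Nodal 0%, 10.8% and 55.1%. Lin28b and Myc are given as well, chosen after their values were seen. Lin28b, the paralogue of Lin28a, had 37.0%, 14.9% and 38.8%, and Myc had 0%, 34.6% and 0% in NPC and the c-myc-immortalized lines. In 10 of the 39 genes no list had a peak, among them Dppa2, Dppa4, Tet1, Klf2 and Stat3, while 44.8% of all records had none.

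**Figure D4:**
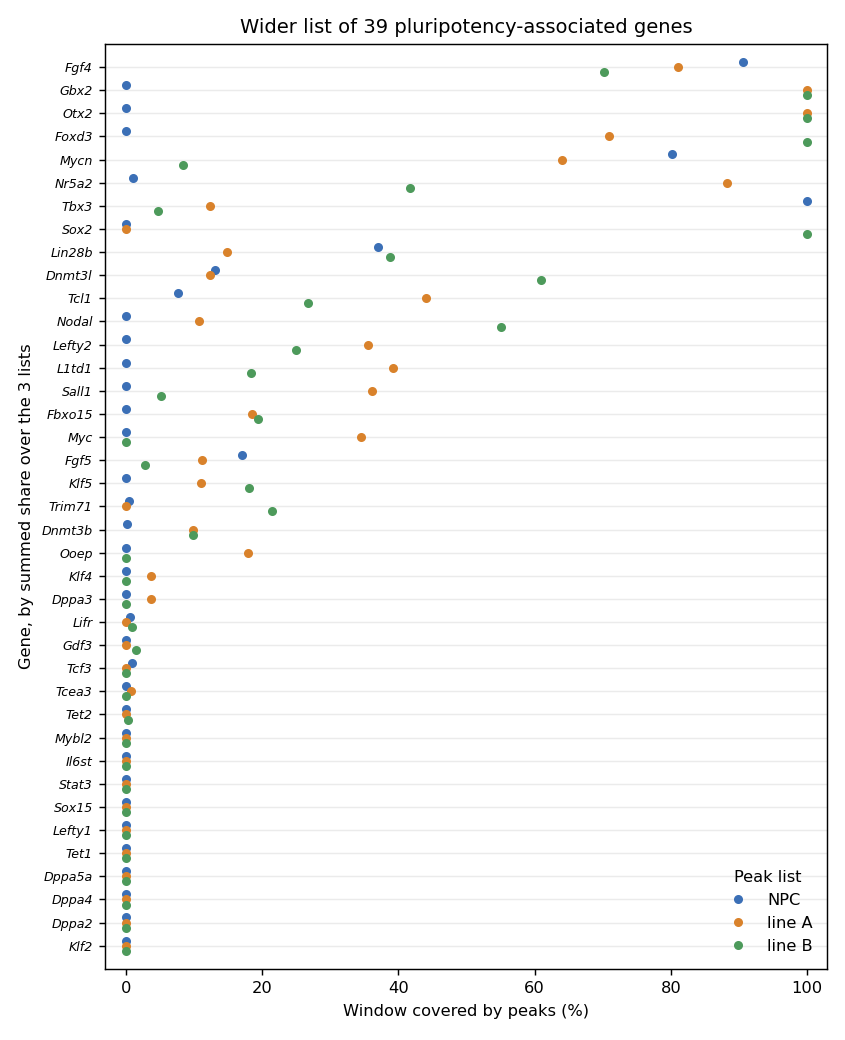
Share of the window covered by H3K27me3 peaks (horizontal axis, percent) for each of 39 further pluripotency-associated genes, ordered by the sum over the NPC, line A and line B lists, with 1 point per list. Gbx2 and Otx2 sit at 100% in both fibroblast lists and 0% in NPC, Tbx3 at 100% in NPC, and the lowest 10 genes at 0% in each list.

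For the 4 members with the highest summed share, the gene outside these lists with the most similar covered shares over the 3 lists was Adcy4 for Sall4 (differences summing to 5.97 points), Prss40 for Prdm14 (0.995), Sdsl for Lin28a (2.62) and Tfec for Esrrb (2.35). Likeness over 3 values is a description only.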

How the data were processed

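H3K27me3 was measured by CUT&RUN in NPC and by ChIP-seq in fibroblasts, per the labels' protocols. The 3 peak lists deposited by the authors hold chromosome, start and end in mm10. Per the submitters' processing notes, MACS2 2.1.1.20160309, Bowtie2 2.2.9, deepTools, Picard and DESeq2 were used, with builds dm6 and mm10, in roles not given in the sources used here. Also not given there are the threshold, control and pooling of the peak calls, and which libraries they used. The fibroblast list names join the wild-type and Ezh2 -/- library names of a line.

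Starts were read as 0-based and printed 1-based. Covered length was summed with numpy 2.4.6 and pandas 2.3.3 in Python 3.11.15 over 20665 autosomal protein-coding RefSeq records (of 21900), and checked on simulated data. Starts and strand came from a RefSeq promoter table that held 16457 of these records and 8 of the 10 members, with Sall4 and Prdm14 named only. All 10 members and 39 further genes matched by symbol. The symbol Tcf3 matched gene 21423 on chromosome 10. The name Tcf3 is also used for Tcf7l1, which is not in the wider list. The members, lists and naming rule were chosen with earlier results of these data known. The rule named all members, the nearest record on each side, genes of the wider list in the first 6 by summed share or with at least 50% of the window covered, and 1 most similar gene for each of 4 members. Windows of records less than 10 kb apart overlap. No tests were run, because each cell system has 1 list.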

Additional observations from a re-analysis of the deposited data

How the results depend on the processing

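Over 10 alternatives the counts of members with a peak stayed within 1.5 times their values, with these exceptions. In NPC the count was 1 of 10 where at least 10% of the window had to be covered (16.3% of all records) and 3 of 8 within 2 kb of a start (17.5%), against 6. With the widest peaks of each list kept up to the NPC total of 136.9 Mb, a choice made after seeing the data, line A had 4 (16.2% of records) and line B 6 (19.4%). Under that choice 1 gene in each fibroblast line had at least 50% covered (5.71% of records in line A, 6.61% in line B). The wider list of 39 then had a peak at 7 genes for line A (16.2% of records) and at 12 for line B (19.4%). Prdm14 and Lin28a were then more covered in NPC than in line A. This cut kept every NPC peak and dropped the narrower line A peaks, including all those at Prdm14 and Lin28a. With peaks under 3 kb apart joined, 6 genes in line A had at least 50% covered (13.2% of records). With 25 kb around the record 2 in line B did (7.58%). With peaks under 1 kb left out, 7 of the 39 genes of the wider list had a peak in NPC (26.6% of records), and Prdm14 and Zfp42 lost their only NPC peak. With 10 kb around the record Utf1 and Tdgf1 gained NPC coverage (11.4% and 4.84%). Without flanks Utf1 lost its line A coverage and Pou5f1 its line B coverage. The sign of line A minus line B turned for Pou5f1 in 4 alternatives and Prdm14 in 3, whose values lay within 3 points in the 2 lines, and for Lin28a with joined peaks, and that of NPC minus line B for Tfcp2l1 in 2. The causes were not tested. No paired analysis was possible because the lists are not given per library, and no replicate could be left out for the same reason. Depth is unknown, so no limit of detection can be given for the members with 0 bp.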
